A study of Mus musculus with 4 samples.

Results

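The replication-dependent histone genes were examined in region lists for 2 histone marks, H3K9me3 and H3K36me3, from mouse embryonic stem (ES) cells. Members were the protein-coding genes whose symbols begin with Hist1h, Hist2h, Hist3h or Hist4h in the GENCODE annotation of mouse assembly NCBIM37 (mm9), which gave 67 of 22367 protein-coding genes. Of these, 55 belonged to Hist1, 9 to Hist2, 2 to Hist3 and 1 to Hist4, and they encoded 6 H1, 19 H2A, 18 H2B, 11 H3 and 13 H4 proteins. The rule used names and no measured value. Throughout, a gene is said to carry a region when a region shares at least 1 bp with it.

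Chromatin immunoprecipitation and sequencing of both marks was carried out on WT cells, unmodified for H3f3a and H3f3b, and on G34R cells, whose H3f3a genotype is +/G34R and whose H3f3b genotype is +/+. Both were of the strain 129S1/SvImJ, and with 1 library per mark and cell type there were 4 libraries. In the G34R cells a mutant minigene coding sequence lies behind the endogenous H3f3a promoter on 1 allele, after Cre had removed a WT minigene and the neo cassette, and the labels do not name the clone. The 2 lists give positions of regions that were enriched in WT or in G34R cells (32502 for H3K9me3 and 31593 for H3K36me3), without read values and without saying in which cells. A comparison of WT with G34R cells at the histone genes was therefore not analysed here, the depth is unknown, and there were no replicates.

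Replication-dependent histone genes supply the bulk of new histones in S phase, when DNA is copied. Most lack introns, many lie in dense clusters, and their mRNAs end in a conserved stem-loop bound by SLBP in place of a poly(A) tail. H3K36me3 is laid down along gene bodies by SETD2, which travels with elongating RNA polymerase II, whereas H3K9me3 is best known from heterochromatin, silent repeats and clusters of zinc finger genes. Both lysines lie on histone H3 itself, so that the H3 genes described here encode the substrate of both marks.

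The histone stem-loop was searched in the 100 bases after the stop codon, on the gene strand. It was found in 52 of 67 members (77.6%, 95% Wilson interval 66.3 to 85.9), beginning 22 to 59 bases after the stop codon (median 32). Among 21853 other protein-coding genes 1 held it, 1700014N06Rik. The most common form was shared by 39 members of all types but H4, and a second form by 8 H4 genes. They are shown with 5 flanking bases on each side because they identify the class by a feature that the rule did not use. The stem-loop is in capitals.

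Hist3h2a: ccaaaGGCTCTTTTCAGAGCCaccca

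Hist1h2aa: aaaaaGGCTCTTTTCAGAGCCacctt

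Hist4h4: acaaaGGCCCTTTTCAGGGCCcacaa

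With 1 mismatch allowed, 64 members and 3 other genes held the stem-loop, and 1 of those other genes was H2afx, which encodes the DNA damage variant H2A.X. By type, exact matches were found after 5 of 6 H1, 16 of 19 H2A, 12 of 18 H2B, 7 of 11 H3 and 12 of 13 H4 genes. A further 12 members, Hist1h2ba among them, held the stem-loop only with 1 mismatch, and Hist1h2al, Hist2h2be and Hist2h2bb held none under either rule.

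No H3K36me3 region touched a replication-dependent histone gene. The count was 0 of 67, for which the limit of 3 counts is a share of 4.48%, whereas 34% of all protein-coding genes carried such a region. The members were short, with a median of 530 bp (range 312 to 37383 bp) against 15430 bp for all protein-coding genes. Among the 3293 protein-coding genes of up to 2 kb, 2.98% carried an H3K36me3 region (98 genes), and among the 2923 with a single exon 2.22% did (65 genes). Without olfactory, vomeronasal and trace amine receptor genes the latter share was 3.59%. The 95% Wilson interval of the members, a second and wider limit, was 0 to 5.42% and includes these shares. Thus the histone genes could not be distinguished from other short or intronless genes in H3K36me3.

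H3K9me3 regions touched 3 members, Hist1h2ba, Hist1h2aa and Hist1h2be (4.48%, 1.53 to 12.4), whereas 40.2% of all protein-coding genes carried one. The share was 10.3% among genes of up to 2 kb (338 genes), within the interval of the members, and 14.5% among single-exon genes (423 genes), or 21.4% without the receptor genes, both above it. Not all members belong to these groups, since 58 are up to 2 kb and 61 have 1 exon. Hist1h2ba and Hist1h2aa belong to both, whereas Hist1h2be spans 37383 bp with 2 exons and belongs to neither. Hist1h2ba and Hist1h2aa share 1 region, so that the 3 genes rest on 2 regions. With regions of at least 1 kb only, 0 of 67 members carried H3K9me3, against 24.6% of all protein-coding genes. Without the Hist1 genes the count was 0 of 12. In bases, H3K9me3 regions covered 1095 of 110651 bp of member sequence (0.990%), against 3.38% over all protein-coding genes, 7.98% over genes of up to 2 kb and 13.4% over single-exon genes. H3K36me3 regions covered 0 bp of the members, against 5.71%, 2.02% and 1.74% of these groups. Hist1h2be alone supplied 37383 bp of the member sequence and 600 of the 1095 bp covered by H3K9me3. No H1, H3 or H4 gene carried a region of either mark. Wilson intervals here cover counting error only.

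**Figure D1:**
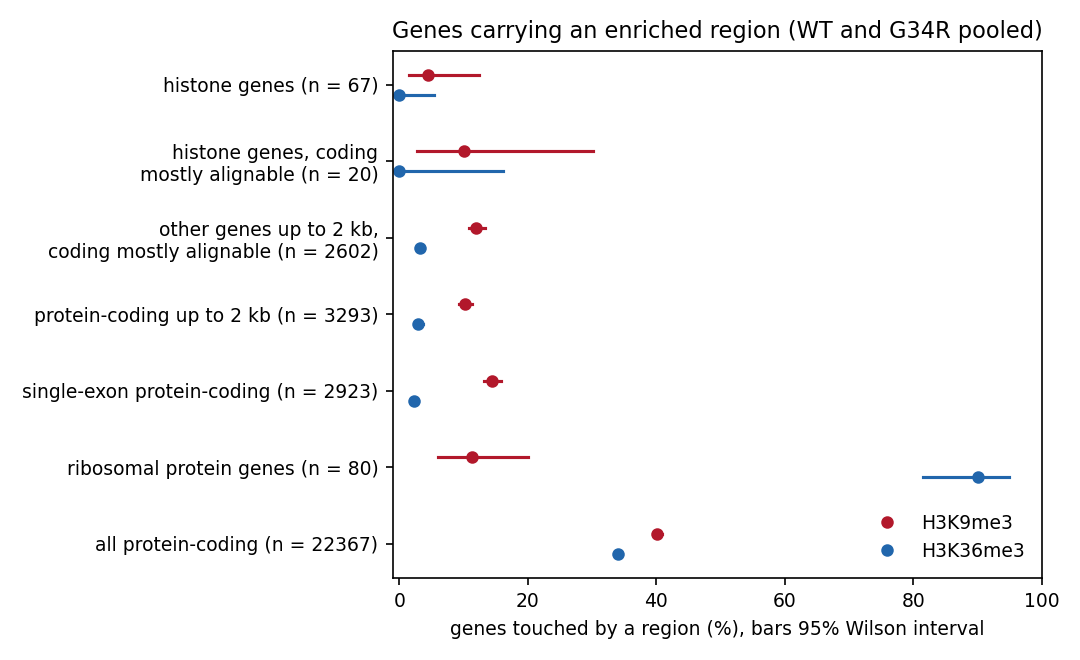
Percentage of genes touched by an H3K9me3 (red) or H3K36me3 (blue) region in 7 groups of genes, on a linear axis, with bars for the 95% Wilson interval and the number of genes beside each name. "Coding mostly alignable" stands for at most 50% of coding windows above the alignment limit. Histone genes stood at 4.48% and 0%, and ribosomal protein genes at 11.3% and 90.0%.

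The first H3K9me3 region lay at the end of the largest cluster and held the starts of both genes of a divergent pair. Hist1h2ba and Hist1h2aa encode H2B and H2A forms known from testis. They are transcribed away from each other from a gap of 305 bp, at chr13:24025637-24026025 on the minus strand and chr13:24026331-24026720 on the plus strand. The region, chr13:24025801-24026600, is 800 bp wide. It covered 225 bp of Hist1h2ba (57.8%) and 270 bp of Hist1h2aa (69.2%), all of it coding sequence, and it held 34 CpG at 51.9% G+C. Of the 50-base windows in it, 96.1% matched the assembly at a single place, so the region lies in sequence to which reads could be assigned.

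The intergenic sequences of 3 such pairs are shown because only the first of them carried the mark. Capitals mark CCAAT, the TATA box TATAAA and the octamer ATTTGCAT, each also in its reverse complement. The sequences are given on the plus strand of NCBIM37, from chr13:24026028-24026327, chr13:23663090-23663264 and chr3:96024804-96025043.

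Hist1h2ba and Hist1h2aa: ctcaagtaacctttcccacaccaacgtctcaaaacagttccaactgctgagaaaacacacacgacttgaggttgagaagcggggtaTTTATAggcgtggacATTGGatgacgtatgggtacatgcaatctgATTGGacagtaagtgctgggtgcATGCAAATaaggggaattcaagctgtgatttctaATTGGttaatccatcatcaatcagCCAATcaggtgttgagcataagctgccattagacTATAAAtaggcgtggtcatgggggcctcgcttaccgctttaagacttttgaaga

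Hist1h2ae and Hist1h2bg: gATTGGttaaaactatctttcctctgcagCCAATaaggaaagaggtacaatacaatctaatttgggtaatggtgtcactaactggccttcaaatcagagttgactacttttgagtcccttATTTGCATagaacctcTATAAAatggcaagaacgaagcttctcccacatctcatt

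Hist2h2ac and Hist2h2be: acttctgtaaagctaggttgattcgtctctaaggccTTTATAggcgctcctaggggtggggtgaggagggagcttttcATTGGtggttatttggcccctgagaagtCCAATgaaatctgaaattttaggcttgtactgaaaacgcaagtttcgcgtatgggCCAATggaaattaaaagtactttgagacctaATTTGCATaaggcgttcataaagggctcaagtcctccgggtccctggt

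In all there were 12 divergent pairs of an H2A and an H2B gene with gaps of 167 to 305 bp, and 1 of them carried an H3K9me3 region. The gap between Hist1h2ba and Hist1h2aa was the widest of the 12. Its printed 300 bp held 4 CCAAT, 2 TATAAA and 1 ATTTGCAT, the sequence read by the octamer factor Oct1 (Pou2f1). The gap between Hist1h2ae and Hist1h2bg held 2 CCAAT, 1 TATAAA and 1 ATTTGCAT, and that between Hist2h2ac and Hist2h2be held 3, 1 and 1. CCAAT, which is read by NF-Y, occurred in all 12 gaps (2 to 5 copies), while TATAAA and ATTTGCAT occurred in 5 each. All 3 motifs were thus present in both unmarked pairs printed, though not in most of the unmarked pairs. A match is a description of letters and not of binding.

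Across all members, the 300 bp from 250 bases before to 50 after the gene start held CCAAT on either strand in 57 of 67 (85.1%, against 37.9% of the windows of all protein-coding genes). TATAAA was found in 38 (56.7% against 13.4%) and ATTTGCAT in 15 (22.4% against 1.73%). CCAAT was present at each of the 19 H2A, 18 H2B and 6 H1 genes and at 10 of 11 H3 genes, but at 4 of 13 H4 genes. ATTTGCAT was found at 7 H2A and 8 H2B genes and at no H1, H3 or H4 gene. In each of the 12 divergent pairs the windows of both genes overlap, so that a site between them can count for both. The H2A and H2B counts are therefore not separate observations. The median G+C of these windows was 46.0% in members and 55.0% in all genes.

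The second H3K9me3 region lay within the annotated span of Hist1h2be, but far from its coding sequence. Hist1h2be encodes a core H2B, and its gene model on the minus strand, chr13:23675611-23712993, spans 37383 bp with 2 exons. The region, chr13:23683201-23683800, is 600 bp wide, the narrowest width in either list. It lay 5376 bp from the coding sequence, covered 0 bp of exon and held 10 CpG at 42.5% G+C. All of its 50-base windows (100%) matched a single place, whereas 97.6% of the coding windows of Hist1h2be matched more than 5. Counted over coding sequence, the members with an H3K9me3 region were thus Hist1h2ba and Hist1h2aa.

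**Figure D2:**
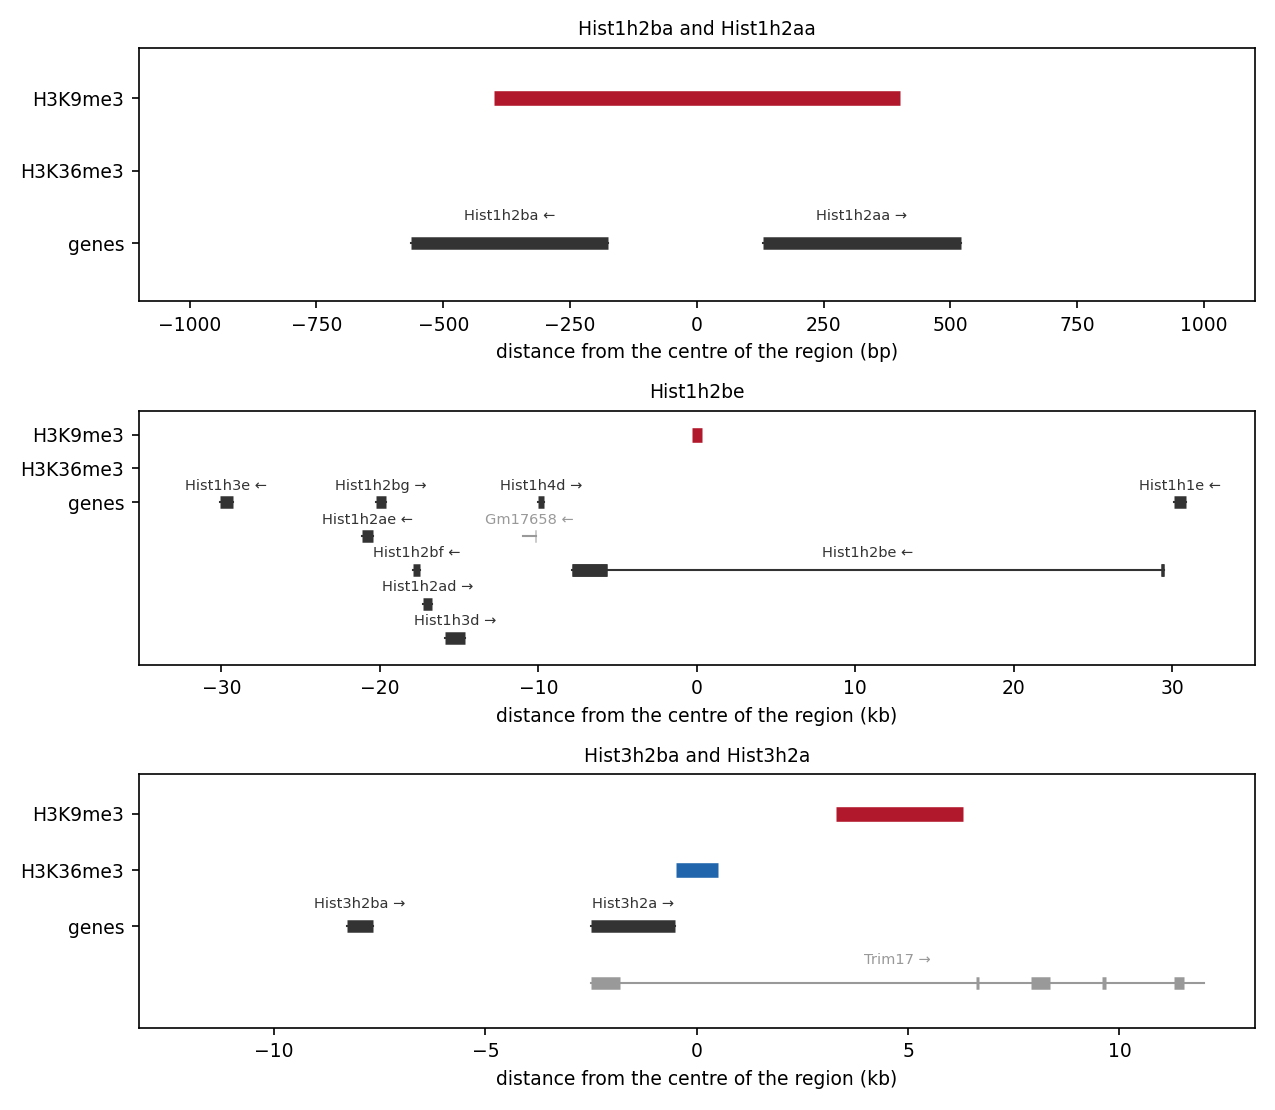
Genes (boxes are exons, arrows the strand) and regions of H3K9me3 (red) and H3K36me3 (blue) at 3 loci, by distance from the centre of a region in bp (top) or kb (middle, bottom). The 800 bp region spans both starts of the divergent pair, the 600 bp region lies in the intron of Hist1h2be, and the H3K36me3 region beside Hist3h2a begins 25 bp past its end.

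The members fell into 8 blocks when genes less than 100 kb apart were joined. Of the Hist1 genes, 54 lay in 2.22 Mb of chromosome 13 (chr13:21807632-24026720), in blocks of 18, 5, 29 and 2 genes, and Hist1h2al stood alone at chr13:51298057-51298434. That 2.22 Mb held 16 H3K9me3 regions, of which 2 touched members. Another 10 lay in the noncoding transcripts 4930557F10Rik and 4930586N03Rik, between the second and the third block, and the rest were at Pom121l2, Gm11044, the vomeronasal receptor gene Vmn1r215 and the pair Gm11308 and Gm11309. It held 5 H3K36me3 regions, 2 at Zfp184, 2 at Zfp322a and 1 at Abt1, and 0 of them touched a member. Of 48 other protein-coding genes in the same stretch, 3 carried H3K9me3 and 3 carried H3K36me3 (6.25% each). Among the Hist1 members, 5.45% carried H3K9me3 (1.87 to 14.9), so that their interval includes the share of their neighbours. Only bins in genes were retained, and sequence between genes could not hold a region.

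**Figure D3:**
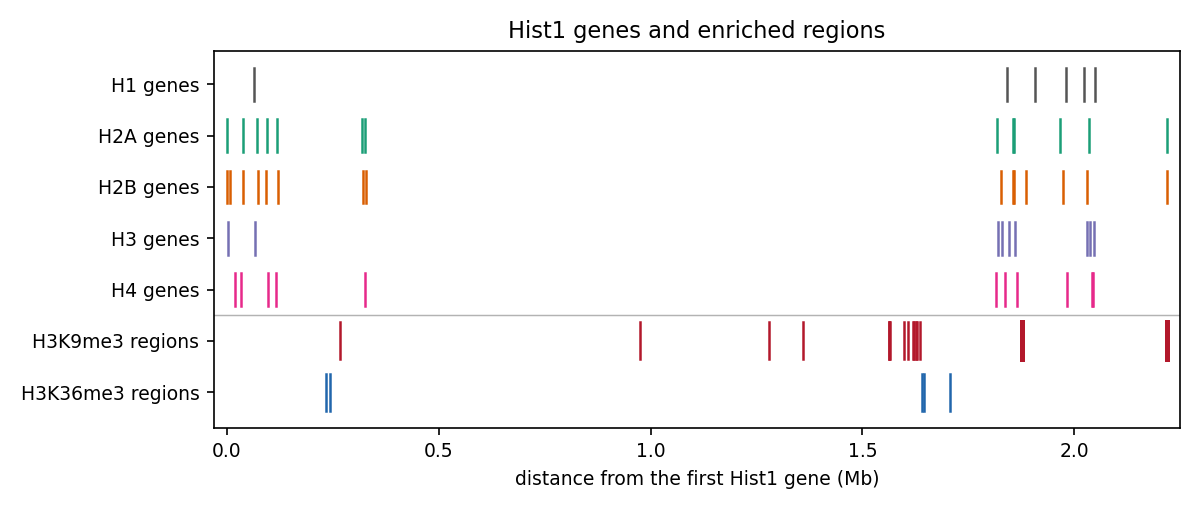
Positions of the 54 Hist1 genes by type (upper 5 rows) and of the 16 H3K9me3 and 5 H3K36me3 regions (lower rows) along 2.22 Mb, by distance in Mb from the first Hist1 gene. Thick red lines are the 2 regions that touch members. Most regions lie between the gene blocks.

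Distances to the nearest region differed widely between blocks. Members without a region lay a median of 66680 bp from the nearest H3K9me3 region and 148700 bp from the nearest H3K36me3 region, against 51000 bp and 106200 bp for all protein-coding genes without one. For genes of up to 2 kb the medians were 102000 bp and 249900 bp, for single-exon genes 108000 bp and 269900 bp, and for the 1783 single-exon genes that are not olfactory, vomeronasal or trace amine receptor genes 66640 bp and 151600 bp, close to the members. The distance of the members relative to other genes therefore depends on the genes chosen. In the first block of 18 genes the closest member, Hist1h2br, was 112402 bp from H3K36me3 at Zfp184. In the block of 5 genes Hist1h2ah was 51782 bp from H3K9me3 at Pom121l2 and 75182 bp from H3K36me3 at Zfp184. In the block of 29 genes Hist1h4h was 108319 bp from H3K36me3 at Abt1, which encodes an activator of basal transcription. Hist1h2aa lay 295481 bp from H3K36me3 at Lrrc16a, and the isolated Hist1h2al 30857 bp from H3K9me3 at Nxnl2 and 52257 bp from H3K36me3 at Spin1. In all, 49 members were more than 100 kb from H3K36me3 and 29 more than 100 kb from H3K9me3, and these 29 were among the 49.

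By median distance, the smaller clusters lay nearer to regions of both marks than Hist1 did. Hist2, Hist3 and Hist4 hold 9, 2 and 1 members and form 1 block each. Their members are neighbours and not separate observations, so the medians describe a few loci. Medians to H3K9me3 were 106100 bp in Hist1, 41160 bp in Hist2, 6919 bp in Hist3 and 33590 bp in Hist4. To H3K36me3 they were 161000, 67860, 3597 and 9101 bp. The only members with an H3K9me3 region were in Hist1, and Hist1h2al (30857 bp) was nearer to H3K9me3 than Hist4h4. Hist3h2a, an H2A gene at chr11:58768187-58770176, ended 25 bp before an H3K36me3 region (chr11:58770201-58771200) that lies in an intron of the overlapping Trim17, and 3825 bp before an H3K9me3 region in the same gene. It was the 1 member within 1 kb of H3K36me3. Its neighbour Hist3h2ba was 7169 bp from that region. Hist4h4, the only member on chromosome 6, was 9101 bp from an H3K36me3 region in Wbp11, which encodes a splicing factor, and 33589 bp from an H3K9me3 region at Gucy2c. In Hist2, Hist2h2bb was 8277 bp from H3K9me3 at Fcgr1, an Fc receptor gene, and Hist2h2ab was 42239 bp from H3K36me3 at Sf3b4.

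None of the 11 H3 genes carried a region, although 3 counts of 11 allow a share of up to 27.3%. That limit lies below the shares of all protein-coding genes (40.2% for H3K9me3 and 34% for H3K36me3) but above those of genes of up to 2 kb (10.3% and 2.98%), from which 0 of 11 could not be distinguished. Their distance to H3K9me3 ran from 14321 bp at Hist1h3d to 232097 bp at Hist1h3h, and to H3K36me3 from 67877 bp at Hist2h3c1 to 339122 bp at Hist1h3a. The remaining members, Hist1h3b, Hist1h3c, Hist1h3e, Hist1h3f, Hist1h3g, Hist1h3i and Hist2h3b, lay between these values. The codons of G34 and K36, in capitals within residues 32 to 39 (counted without the first methionine), are shown because they set these genes beside H3f3a, which carries the G34R mutation in the G34R cells.

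Hist1h3a: accggcGGCgtgAAGaagcctcac

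Hist2h3b: acgggcGGCgtgAAGaagccgcac

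H3f3b: accggcGGGgtgAAGaagcctcac

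H3f3a: actggaGGGgtgAAGaaacctcat

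Of the 10 H3 members read here, all used GGC at residue 34 and 8 shared the stretch of Hist1h3a, while H3f3a and H3f3b used GGG. Hist2h3c1 was left out because, counted from its annotated start, its coding sequence lacked a lysine codon at K9, K36 or both. Whether an H3 coding sequence begins further downstream within it was not examined.

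Histone genes resemble one another closely, and the study discarded reads that aligned to more than 5 places. Over whole genes, the planned measure, 21.7% of the 50-base windows of members lay above that limit, with up to 2 mismatches allowed. The share of coding 50-base windows above that limit was counted with up to 2 mismatches in the reference assembly. The median over members was 83.1% (range 0 to 100%). It exceeded 50% in 47 members and 90% in 25, and it was 0% in 7, the 6 H1 genes and Hist2h2bb. By type the median was 0% for H1, 97.1% for H2A, 97.3% for H2B, 85.0% for H3 and 75.0% for H4. In 35 members no coding window matched a single place. The Hist2 genes stood lower (median 38.5%) than the Hist1 genes (87.5%), and Hist4h4 was at 1.92%.

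The likeness is shown with bases 101 to 150 of the H2A coding sequence, the length of 1 read. Capitals mark differences from the most common form.

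Hist1h2ai: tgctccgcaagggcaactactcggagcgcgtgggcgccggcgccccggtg

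Hist1h2ac: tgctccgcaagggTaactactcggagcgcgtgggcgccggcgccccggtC

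Hist2h2aa1: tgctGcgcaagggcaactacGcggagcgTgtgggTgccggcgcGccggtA

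Hist3h2a: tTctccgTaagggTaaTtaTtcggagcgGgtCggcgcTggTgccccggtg

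Hist1h2aa: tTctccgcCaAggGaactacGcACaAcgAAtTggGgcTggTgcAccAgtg

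The form of Hist1h2ai (chr13:21808391-21808440) was found at 7 places exactly and at 13 with up to 2 mismatches. Hist1h2ac differed from it at 2 bases and matched 11 places, Hist2h2aa1 differed at 6 bases and matched 4, and Hist3h2a differed at 9 and matched 1. Hist1h2aa (chr13:24026431-24026480) differed at 16 bases, the most of the 18 H2A genes scored, and matched 1 place. In 12 of the 18 the stretch lay above the limit. Hist1h2al was left out of this comparison because its annotated coding sequence does not begin with ATG. Among the 66 other members, 8 had a partner with an identical one, namely Hist1h2bq and Hist1h2br, Hist1h2ao and Hist1h2ap, Hist1h4m and Hist1h4n, and Hist2h2aa1 and Hist2h2aa2. Reads from such a pair cannot be told apart within the coding sequence.

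**Figure D4:**
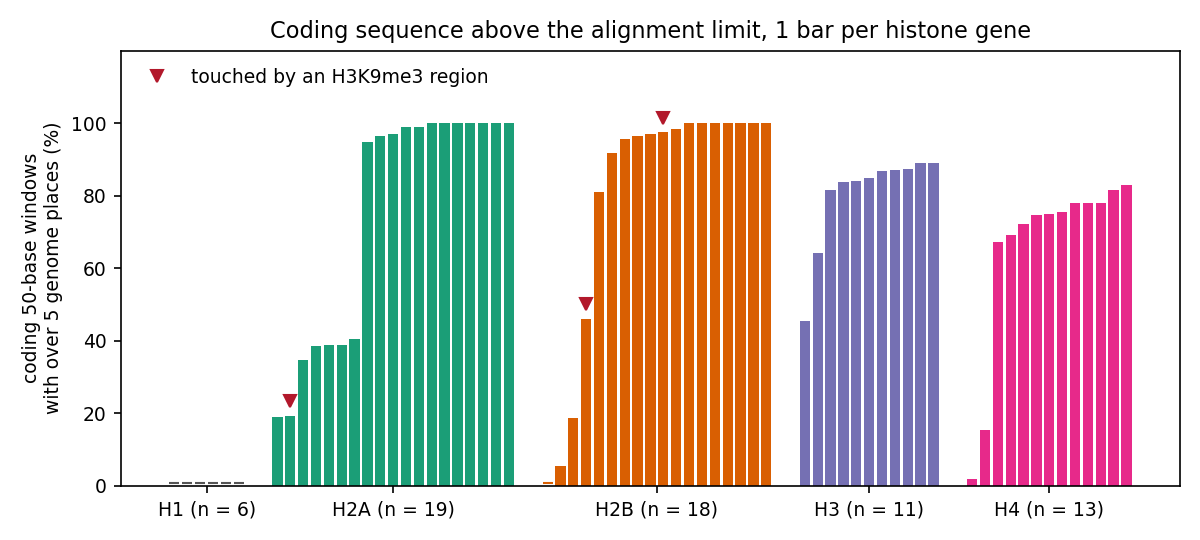
Percentage of coding 50-base windows with over 5 places in the assembly (up to 2 mismatches), 1 bar per member, ordered by value within each histone type; short dashes mark 0%. Red triangles mark the 3 members touched by an H3K9me3 region. The H1 genes are at 0%, and the median is 97.1% for H2A and 97.3% for H2B.

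Members were divided by how much of their coding sequence was alignable. Of the 20 members with at most 50% of coding windows above the limit, 0 carried H3K36me3 (up to 15.0% by 3 counts) and 2 carried H3K9me3 (10.0%, 2.79 to 30.1). Of the other 47, 0 carried H3K36me3 and 1, Hist1h2be, carried H3K9me3 (2.13%, 0.377 to 11.1). Hist1h2be spans 37383 bp and its region lies outside its exons, so no member of up to 2 kb among the 47 carried H3K9me3. Both groups of members include genes over 2 kb, unlike the other genes compared next. Among other genes of up to 2 kb, H3K9me3 was carried by 12.0% of the 2602 with at most 50% of coding windows above the limit and by 3.42% of the 556 with more. The corresponding shares for H3K36me3 were 3.15% and 1.44%. The Wilson intervals of the 20 and the 47 members (0 to 16.1% and 0 to 7.56% for H3K36me3) include the shares of the other short genes, for both marks. The 300 bp before the gene start were alignable in most members, with 0% of windows above the limit in 59 of 67 and at most 24.7%.

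Other genes with coding sequence above the limit are given for comparison, but they are longer and have introns, in which a region can lie, and so differ from the members. The ribosomal protein genes, which have many processed pseudogenes, had a median of 83.5% of coding windows above the limit, and 90.0% of the 80 genes carried H3K36me3 (81.5 to 94.9). Their median length was 3306 bp. H3f3a, at 100% of coding windows above the limit, carried H3K36me3 over 58.0% of its 13112 bp. The part of the alignment limit in the 0 of 67 was not tested.

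Bins outside annotated genes were not retained by the study, which sets a limit for short genes that stand alone. The run of consecutive 200 bp bins touching any GENCODE gene had a median of 1400 bp at the members, and 66 of 67 members lay in a run of at least 600 bp, the smallest width in the lists. In 9 members the run was exactly 600 bp, so that a region could arise there only if each of its bins was enriched. The study took its genes from UCSC, and runs in GENCODE can be longer or shorter than those available to it. Among all genes in runs of up to 2 kb (2557 genes), 8.37% carried H3K9me3 and 0.821% carried H3K36me3.

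The genes listed for histone gene transcription and for processing and decay of histone mRNA carried H3K36me3 with 1 exception. The count was 20 of 21 (95.2%, 77.3 to 99.2), against 34% of all protein-coding genes, covering a median of 35.7% of their length, and Cstf2 on the X chromosome did not. They span 1962 bp (Lsm10) to 137525 bp (Pou2f1), all longer than the median member (530 bp), although 9 members exceed 2 kb. For the S phase coactivator Npat, which resides in histone locus bodies, 28.4% of the length was covered by 11 regions. Its partner in these bodies Casp8ap2 was covered over 22.7%. Slbp, the stem-loop binding protein, was covered over 51.1%. Among the genes for 3′ end cleavage, coverage was 21.8% at Lsm10 and 10.8% at Lsm11 of the U7 snRNP, 46.0% at the histone-specific factor Zfp473, 72.8% at the scaffold Sympk, 59.1% at the nuclease Cpsf3 and 32.6% at its partner Cpsf2. The cap-binding genes Ncbp1 and Ncbp2 were covered over 35.1% and 36.2%.

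Histone mRNA decay genes also carried the mark, with 89.1% of the helicase gene Upf1 and 13.9% of the 3′ exonuclease gene Eri1 covered. The NF-Y subunits read the CCAAT box, and their genes were covered over 46.9% (Nfya), 81.3% (Nfyb) and 9.98% (Nfyc). The cyclin E and Cdk2 kinase activates Npat, and coverage was 67.5% at Cdk2, 73.3% at Ccne1 and 5.96% at Ccne2. Pou2f1, which encodes Oct1, was covered over 2.91%. H3K9me3 was carried by 2 of the 21 (9.52%, 2.65 to 28.9), with 600 bp each in Eri1 and Pou2f1, against 40.2% of all protein-coding genes.

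Of the 11 replication-independent histone genes, 8 carried H3K36me3 (72.7%, 43.4 to 90.3), again beside 34% of all protein-coding genes. Coverage was 13.2% at H3f3b, 24.6% at H2afz and 57.9% at H2afv (both H2A.Z), 68.3% at H2afy and 2.2% at H2afy2 (both macroH2A) and 77.0% at Cenpa, the centromeric H3. H2afx has a single exon of 1357 bp and carried an H3K36me3 region over 70.3% of it, with 38.7% of its coding windows above the alignment limit. The single-exon genes H2afj and H1fx and the oocyte linker gene H1foo carried none. H3K9me3 was carried by H2afy and H2afy2 (18.2%, 5.14 to 47.7, beside 40.2% of all protein-coding genes), with 3 regions each, and at H2afy2 a region held the gene start.

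**Figure D5:**
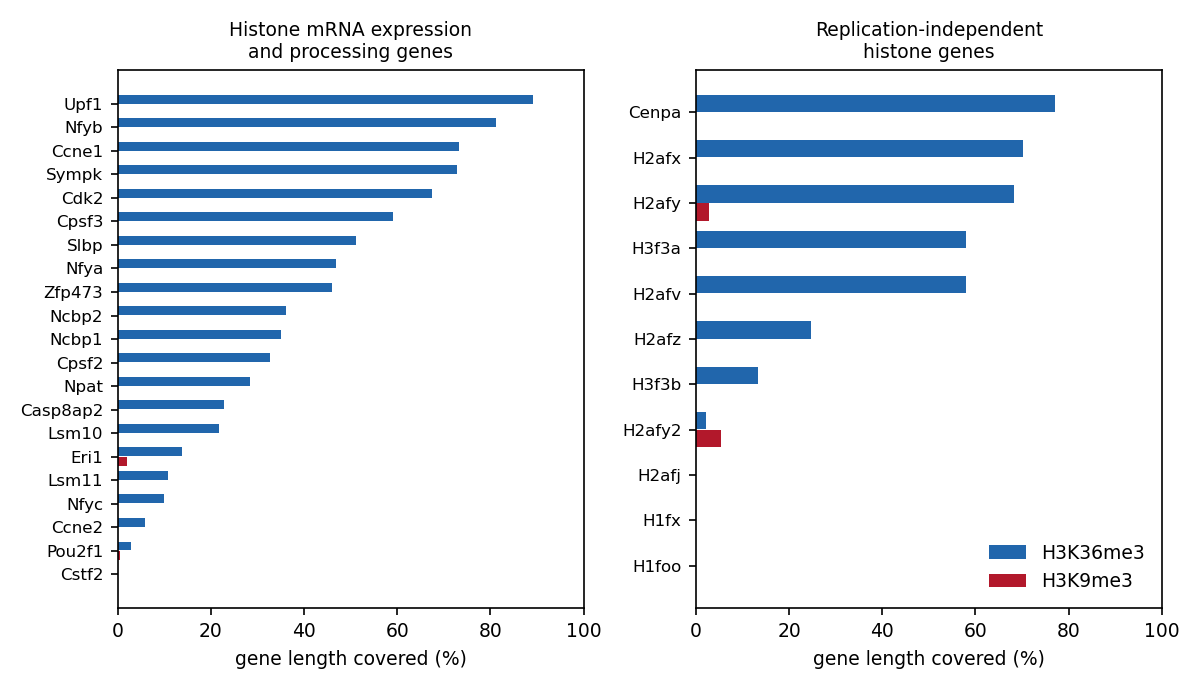
Percentage of gene length covered by H3K36me3 (blue) and H3K9me3 (red) regions for 21 genes of histone mRNA expression and processing (left) and 11 replication-independent histone genes (right), linear axis from 0. H3K36me3 was carried by 20 of 21 and 8 of 11 genes, by 34% of all protein-coding genes and by 0 of 67 replication-dependent histone genes. The last are short (median 530 bp), and among protein-coding genes of up to 2 kb the share was 2.98%.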

How the data were processed

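According to the study's methods, 50-base reads were aligned to mm9 with Bowtie 1.0.0, discarding reads with more than 5 alignments, and duplicates were removed. Reads were counted in 200 bp bins, scaled to library size and matched between WT and G34R cells. Bins in annotated genes above a high percentile in either cell type were joined with bedtools 2.20.1. The methods also give a size limit; as worded it removes wide regions, whereas the narrowest region in either list was 600 bp. Genes were those of UCSC. The authors deposited 1 list of positions (chromosome, start, end) per mark, pooled over WT and G34R cells and without read values, so no depth and no error between libraries can be given.

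Here each list was overlapped with GENCODE genes of NCBIM37 (minimum 1 bp) in Python 3.11.15 with numpy 2.4.6, and places of 50-base windows with up to 2 mismatches were counted with numba 0.67.0. The assembly does not carry the 129S1/SvImJ sequence. Overlap and place counts were tested on simulated data. Shares have 95% Wilson intervals, and no p-value was computed. The members and gene lists were chosen with earlier results of these data known. Named are all members with a region, all H3 genes, nearest regions of the gene blocks and all listed pathway genes with a region; Ars2 and H1f0 were not matched in the annotation. Comparison genes, motifs and the sequences printed were chosen after values were seen. Alternatives were other overlap, width, joining, gene and mismatch rules.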

Additional observations from a re-analysis of the deposited data

How the results depend on the processing

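Of 40 alternatives, 18 stayed within the interval of the value reported and 22 did not. With regions of at least 1 kb only, the share of members with H3K9me3 and the length covered were both 0, and without the Hist1 genes 0 of 12 members carried H3K9me3. For H3K9me3 the count was 2 of 67 over coding sequence or with at least 50% of the gene covered, 3 of 67 with 1 kb added or with neighbours joined, 3 of 70 with pseudogenes and 2 of 20 in members with alignable coding sequence (added later). For H3K36me3 the count was 1 of 67 with 1 kb added on either side (Hist3h2a) and 0 otherwise. The background for H3K9me3 was 10.3% in genes up to 2 kb, 14.5% in single-exon genes, 41.4% without X and Y and 24.6% with regions of at least 1 kb. For H3K36me3 these were 2.98%, 2.22%, 35.2% and 28.4%. Alternatives added after seeing the data gave 8.37% and 0.821% in runs of up to 2 kb, 21.4% and 3.59% in single-exon genes without receptor genes, and 12.0% and 3.15% in other alignable short genes. Over whole genes 21.7% of windows were above the alignment limit, with 13.1% at 0 mismatches, 19.0% at 1 mismatch, 34.2% for more than 1 place and 64.0% in coding sequence alone (added later). The stem-loop share was 95.5% with 1 mismatch. The causes were not tested beyond what each rule changes. The planned comparison of WT with G34R cells was not run, since the lists give positions only. No paired analysis was possible because the lists pool both cell types and each group has 1 library.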
